A study of Mus musculus with 5 samples.

Results

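Transcripts of p53 and of 9 genes that it switches on were followed in lung cells of mice that had breathed room air or hyperoxia as newborns. The 10 genes were taken by their exact symbols from the 42454 features of the count matrices: Trp53 itself, its inhibitor Mdm2, the growth arrest genes Cdkn1a (p21), Ccng1 and Btg2, the genes Bax, Phlda3 and Trp53inp1 tied to cell death and survival signalling, the RNA-binding protein gene Zmat3 and the secreted factor Gdf15. All 10 had counts in every library and at least 100 counts in each comparison between libraries. A further feature named Cdkn1a_1 was left apart and had 0 and 1 counts in air and hyperoxia at pnd7, 8 in sorted cells, and 1 and 5 in air and hyperoxia at pnd60. Unique molecular identifiers (UMIs), which count captured RNA molecules, had been recorded per gene in single cells of 5 libraries. C57BL/6J pups and their dams were placed in room air or in over 95% oxygen for 3 days, starting on the day of birth, and the pups then recovered in room air until postnatal day 7 (pnd7) or pnd60. Unsorted lung cells gave an air and a hyperoxia library at each age, and the remaining library, of hyperoxia-exposed pups at pnd7, held cells sorted by FACS for C12FDG. C12FDG is a substrate that becomes fluorescent when β-galactosidase, a marker of senescence, cleaves it. The sorted library pooled the suspensions of 3 lungs, the number of mice behind each unsorted library was not given in the sources used here, and no group carried a genetic change.

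Each condition had 1 library, so no test across mice was possible, and every interval below covers counting error only. The unsorted libraries came from an earlier data set of the same group, so that sorting and the making of a separate library cannot be told apart. After filtering, 1246 to 4756 cells remained in the unsorted libraries and 493 in the sorted library, with 7880365 to 16648251 counts per library. The median cell held 15529 counts in the sorted library. At pnd7 it held 3915 counts in air and 7119.5 in hyperoxia, and at pnd60 2168 and 2315.5. By their markers, 84.2% of the sorted cells were alveolar macrophage-like and 9.33% were C1q macrophage-like, against 3.60% and 0.953% of air cells at pnd7. Levels over the whole sorted library are thus mostly those of macrophages. Erythrocyte RNA differed as well, since hemoglobin genes took 3.38% of the counts in air and 2.22% in hyperoxia at pnd7, and 0.00131% in the sorted library.

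The tumour suppressor p53 is a transcription factor that is held low by Mdm2, which marks it for degradation. DNA damage and other stresses stabilize the protein, mostly without a change in its transcript, and p53 then switches on genes that stop the cell cycle, repair DNA or start apoptosis. Mdm2 is one of these genes, which closes a negative feedback loop. p21, the product of Cdkn1a, inhibits cyclin-dependent kinases and is a main effector of p53-dependent senescence. Levels are given as CPM, the gene's counts scaled to the same total in every library or class.

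The DNA just before the start sites of these genes was read from RefSeq windows of the build GRCm38.p6, which span 250 bases before to 50 bases after each start. Of the 10 genes, 8 had a window, 10 windows in all, and none was held for Zmat3 or Trp53inp1. Both strands were searched for the p53 consensus motif of 10 letters, and for the element of 20 letters that a pair of these motifs makes in tandem with no base between them. The motif lay in 5 of the 10 windows and in 8.36% of 32851 windows of all genes. The element with at most 1 letter off the consensus, and none off in its C and G core, lay in 22 of all windows (0.067%). That allowance was chosen after the Cdkn1a window had been seen. Cdkn1a and Ccng1 each held such an element, which overlaps the motif search. The sequences are shown with 10 flanking bases on each side, 5′ to 3′ on the strand of the gene, with the element or motif in capitals. The capitals of Cdkn1a and of Ccng1 each include 1 letter that is off the consensus.
Cdkn1a: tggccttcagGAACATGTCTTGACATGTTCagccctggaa
Ccng1: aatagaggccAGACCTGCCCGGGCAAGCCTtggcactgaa
Trp53: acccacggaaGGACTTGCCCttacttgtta
Mdm2: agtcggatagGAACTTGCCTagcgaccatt
Bax: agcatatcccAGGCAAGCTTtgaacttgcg
The Cdkn1a element was at chr17:29090928-29090947 on the plus strand, 51 bases upstream of the start in the window chr17:29090729-29091028. That window held 2 motifs in all, not both of them within the element. The Ccng1 element was at chr11:40755462-40755481 on the minus strand, 195 bases upstream in the window chr11:40755237-40755536. Single motifs were found for Trp53 at chr11:69580284-69580293 on the plus strand, 75 bases upstream, for Mdm2 at chr10:117710935-117710944 on the minus strand, 186 bases upstream, and for Bax at chr7:45467090-45467099 on the minus strand, 201 bases upstream. All lay outside the transcript as RefSeq places its start. The windows of Gdf15, Btg2 and Phlda3 and a further Cdkn1a window held no match, which says only that these letters are not in these windows. The further Cdkn1a window, chr17:29093519-29093818 on the plus strand, surrounds another start, which lies downstream of the element. A match is a description of the sequence and not a measured binding site.

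Hyperoxia and air libraries at pnd7 differed most, among the 10 genes, in Cdkn1a. Its level was 11.2 CPM in air [95% interval 9.62, 12.9] and 21.3 CPM in hyperoxia [18.9, 23.9], from 186 and 289 counts. The hyperoxia library was 1.91-fold higher, a log2 ratio of 0.93 [0.66, 1.20], which exceeded that of 99.7% of 12591 genes. Cells with a Cdkn1a UMI were 5.98% of air cells [5.05, 7.03] and 11.3% of hyperoxia cells [9.61, 13.2]. Cells of the hyperoxia library were deeper, and with every cell thinned to 1000 counts the shares were 1.09% and 2.01%. The mix of cells differed as well. Erythroid-like cells were 22.9% of air and 6.58% of hyperoxia cells, and endothelial-like cells were 6.59% and 15.1%. Of the 528 erythroid-like air cells, 2.08% had a Cdkn1a UMI. The part of this mix in the Cdkn1a difference between the libraries was not tested. The 10 cells with the most Cdkn1a held 31.1% of its counts among 1246 hyperoxia cells and 18.3% among 2308 air cells. Barcodes dominated by hemoglobin, which should hold other genes only as free RNA, carried Cdkn1a in at most 0.0832% and Gdf15 in at most 0.1% of barcodes in the unsorted libraries. Scaled to their counts other than hemoglobin, Cdkn1a was at 2.61 CPM in air and Gdf15 at 3.08 CPM in hyperoxia at pnd7. Each rested on 1 count, beside library levels of 11.2 and 12.7 CPM. Some other members were higher in such barcodes. In hyperoxia at pnd7 Ccng1 was at 33.8 CPM there, from 11 counts, beside 34.0 CPM in the library. Trp53inp1 was at 30.8 beside 41.6 CPM, Btg2 at 135 beside 321 CPM and Phlda3 at 12.3 beside 86.3 CPM. In air barcodes Ccng1 was at 7.84 CPM, from 3 counts. The part of free RNA in the member ratios was not tested. The sorted library had 6 such barcodes with 713 other counts in all, too few to measure its free RNA. Their median total was 9691 counts in air and 10223 in hyperoxia at pnd7, of which 243.5 and 228 were not hemoglobin.

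The other members moved less between these libraries. Trp53 was at 80.5 CPM [76.3, 85.0] in air and 86.7 CPM [81.8, 91.8] in hyperoxia, a log2 ratio of 0.11 [−0.01, 0.22]. Mdm2 was at 48.2 CPM [44.95, 51.7] and 51.0 CPM [47.2, 54.9], a log2 ratio of 0.08 [−0.07, 0.23] whose sign turned to −0.07 when each cell was weighted equally. Phlda3, whose product restrains Akt signalling, was at 64.4 CPM in air and 86.3 CPM in hyperoxia, a log2 ratio of 0.42 [0.30, 0.54]. Fibroblast-like cells held 37.4% and 40.4% of these counts, and within them Phlda3 was at 253 and 283 CPM. Zmat3, which encodes a zinc finger RNA-binding protein, gave 0.31 [0.04, 0.57], Ccng1, which encodes cyclin G1, gave 0.20 [0.01, 0.38], and Bax, which encodes a pore-forming protein of the mitochondrial death pathway, gave 0.18 [0.09, 0.27]. Btg2, an antiproliferative gene, gave −0.07 [−0.13, −0.01], and Trp53inp1, which encodes a stress-induced nuclear protein, gave −0.07 [−0.23, 0.09]. Gdf15, a stress-induced cytokine, was at 14.7 CPM [12.9, 16.6] in air and 12.7 CPM [10.8, 14.7] in hyperoxia, a log2 ratio of −0.21 [−0.50, 0.08].

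None of the 10 genes reached a 2-fold difference in either direction, the call used throughout. Of 12591 genes with at least 100 counts in both libraries together, 0.183% were at least 2-fold higher and 0.802% at least 2-fold lower. Counting intervals lay above 0 for 5 members and below 0 for 1. The median over the members was 0.14 and that over all genes was −0.02. With cells thinned to 1000 counts the Cdkn1a ratio was 1.10, which would be 1 call. A Cdkn1a UMI then remained in 25 cells of each library. These were 1.09% [0.70, 1.60] of air and 2.01% [1.30, 2.95] of hyperoxia cells, with intervals that overlap. The share of all genes past 2-fold in that setting was not computed, so this call is not a result about Cdkn1a.

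**Figure D1:**
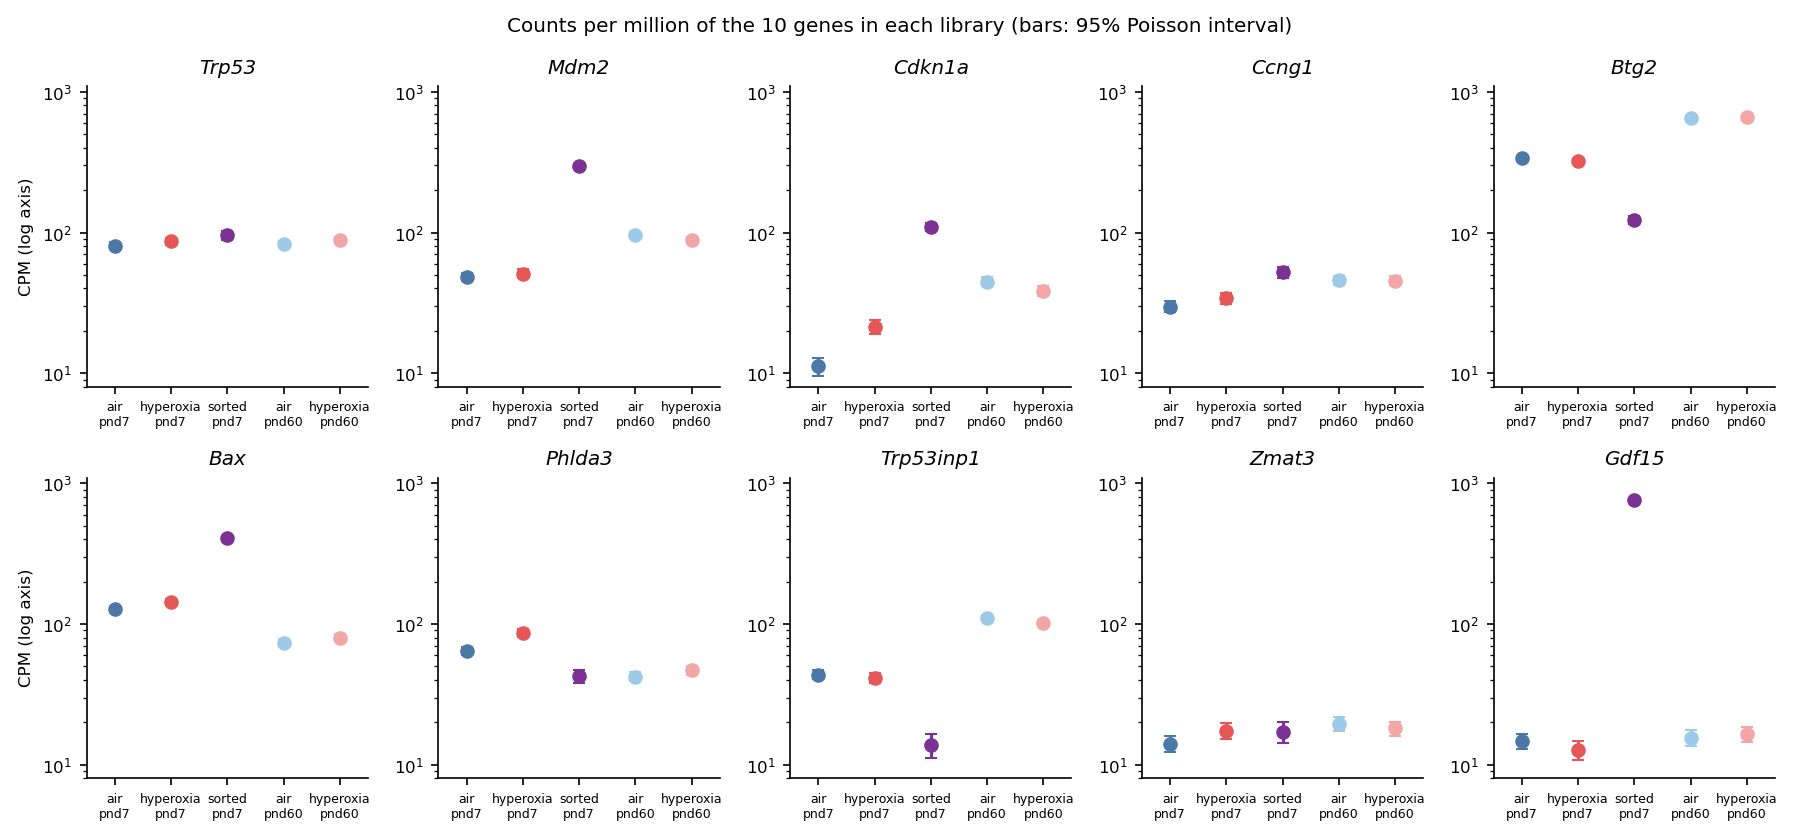
Levels of the 10 genes in CPM in each of the 5 libraries, with 95% exact Poisson intervals as bars. Gdf15 (766 CPM), Mdm2 (296 CPM) and Cdkn1a (110.0 CPM) stand far above the other libraries in the C12FDG-sorted library, and Btg2 (123 CPM) and Trp53inp1 (13.7 CPM) stand below.

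C12FDG-sorted cells carried the highest levels of Cdkn1a, Mdm2, Bax and Gdf15 of the 5 libraries. Gdf15 was at 766 CPM [747, 786] from 6037 counts, against 12.7 CPM in unsorted hyperoxia cells and 14.7 CPM in air cells at pnd7. This was 60.5-fold the unsorted hyperoxia level, a log2 ratio of 5.92 [5.70, 6.15], and 52.3-fold the air level, 5.71 [5.52, 5.90]. A Gdf15 UMI was found in 74.2% of sorted cells [70.1, 78.05], 5.14% of unsorted hyperoxia cells and 4.59% of air cells, and at 1000 counts per cell in 35.9%, 0.884% and 1.48%. A single sorted cell held up to 186 Gdf15 molecules.

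Cdkn1a was at 110.0 CPM [103, 118] in the sorted library, 5.17-fold the unsorted hyperoxia level with a log2 ratio of 2.37 [2.18, 2.57], and 9.85-fold the air level at 3.30 [3.07, 3.54]. Its UMIs were found in 51.7% of sorted cells [47.2, 56.2], and in 7.10% at 1000 counts per cell. Mdm2 was at 296 CPM [284, 308], with log2 ratios of 2.54 [2.42, 2.66] against hyperoxia and 2.62 [2.50, 2.74] against air. Bax was at 408 CPM [394, 422], against 144 CPM in hyperoxia and 127 CPM in air, with log2 ratios of 1.499 [1.42, 1.58] and 1.68 [1.60, 1.76]. Trp53 itself was at 95.3 CPM [88.6, 102], with log2 ratios of 0.14 [0.00, 0.27] and 0.24 [0.11, 0.37], of which the first turned to −0.30 with thinned cells.

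Ccng1 was at 52.0 CPM [47.1, 57.3], with log2 ratios of 0.61 [0.42, 0.81] against hyperoxia and 0.81 [0.62, 1.002] against air. Zmat3 was at 17.0 CPM [14.2, 20.1] and gave −0.04 [−0.35, 0.27] and 0.27 [−0.05, 0.58]. Btg2 was at 123 CPM [115, 131], against 321 CPM in hyperoxia and 337 CPM in air, a log2 ratio of −1.39 [−1.49, −1.29] and −1.46 [−1.56, −1.36]. Trp53inp1 was at 13.7 CPM [11.2, 16.5], against 41.6 CPM and 43.7 CPM, a log2 ratio of −1.60 [−1.91, −1.30] and −1.67 [−1.98, −1.38]. Phlda3 was at 42.4 CPM [38.0, 47.2] and gave −1.03 [−1.21, −0.85] against hyperoxia and −0.60 [−0.79, −0.42] against air, and the second became 0.04 when no barcode was filtered out. Of the 3 arrest genes, Cdkn1a and Ccng1 were thus higher in sorted cells in both comparisons, Ccng1 by under 2-fold, and Btg2 was lower. Relative to the median of all genes Btg2 was at −0.87 against air and −0.84 against hyperoxia, under 2-fold. It exceeded 29.3% and 27.9% of all genes.

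Against air, 4 of the 10 were at least 2-fold higher and 2 at least 2-fold lower, where 7.81% of 11851 genes were higher and 38.5% were lower. Against unsorted hyperoxia cells, 4 were higher and 3 lower, where 8.17% of 11340 genes were higher and 36.4% lower. Both comparisons share the sorted library. All genes were lower on balance in sorted cells, with a median of −0.59 against air and −0.55 against hyperoxia, while the members' medians were 0.54 and 0.37. Relative to those medians of all genes, 5 members were at least 2-fold higher and 1 at least 2-fold lower in each comparison. The share of all genes past this shifted cut was not computed. Ccng1, the lowest of the 5, exceeded 90.2% of all genes against air and 87.1% against hyperoxia. Trp53inp1, the 1 lower member, exceeded 26.5% and 25.2%.

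**Figure D2:**
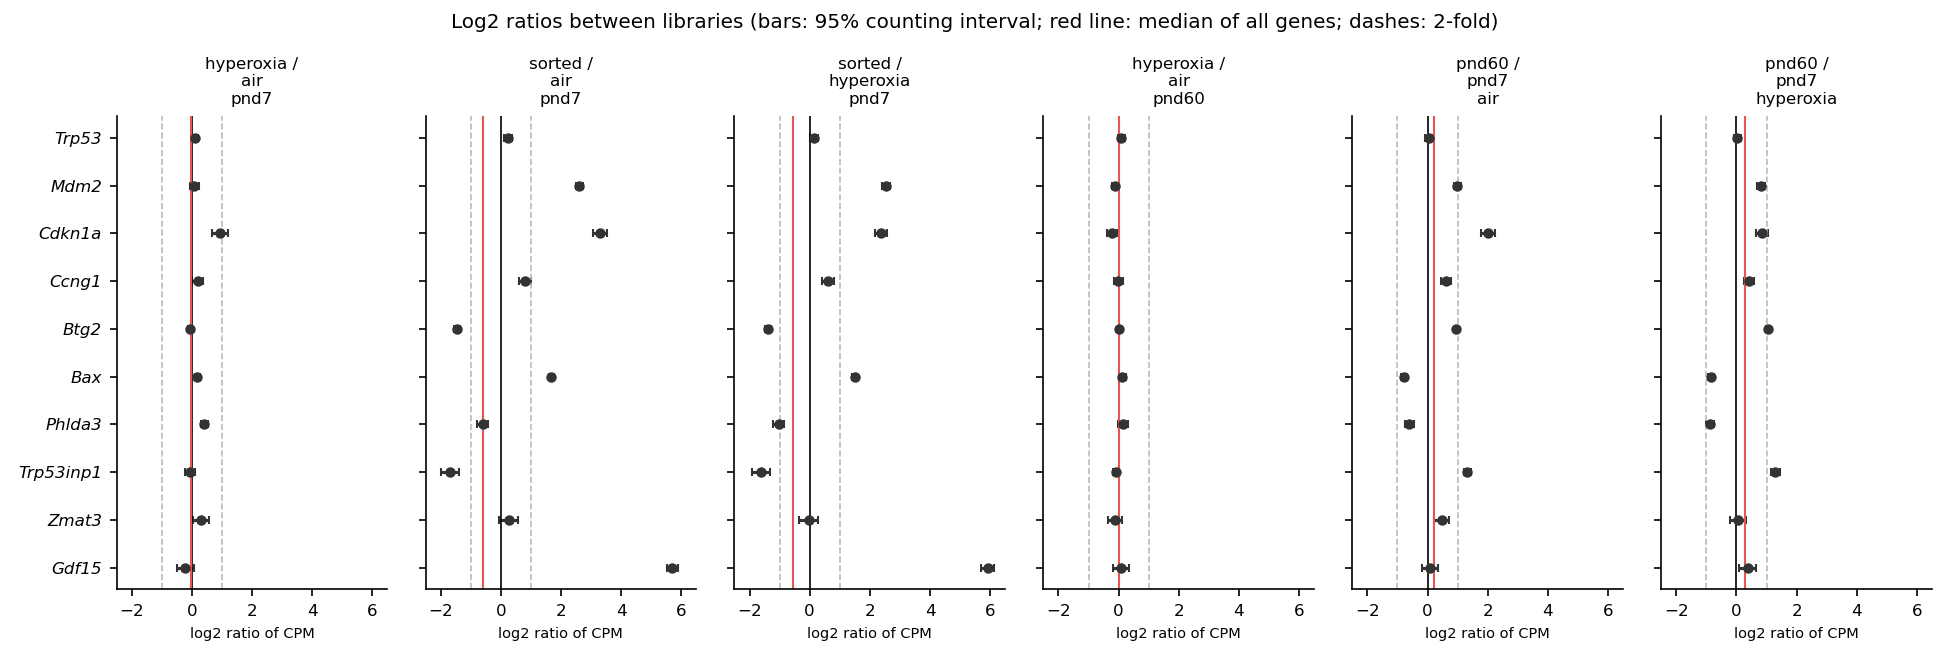
Log2 ratios of CPM of the 10 genes in each comparison between 2 libraries, with 95% intervals that cover counting error. Cdkn1a is 0.93 for hyperoxia against air at pnd7 and −0.22 at pnd60, and Gdf15 is 5.71 for sorted against air cells.

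Since the sorted library was mostly macrophages, the genes were compared within alveolar macrophage-like cells, the phagocytes of the airspaces. Their markers, such as Marco, Chil3, Ear2 and Plet1, named the class, which held 83 air, 63 hyperoxia and 415 sorted cells at pnd7 with median depths of 13186, 13731 and 15698 counts. Different clusters supplied it: 64 of the 83 air cells and 46 of the 63 hyperoxia cells were in 1 cluster, and 373 of the 415 sorted cells in another that was led by Hmox1, Slc7a11, Mt1, Mt2 and Mmp12. In that cluster 10 of 13 alveolar macrophage markers were raised, and since 373 of its 378 cells came from 1 library it may be that library and not a type.

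Cdkn1a in alveolar macrophage-like cells was at 34.3 CPM in air [24.5, 46.7], 90.4 CPM in unsorted hyperoxia [71.8, 112] and 71.7 CPM in sorted cells [65.4, 78.5]. The log2 ratio was 1.40 [0.83, 1.98] for hyperoxia against air, 1.06 [0.60, 1.57] for sorted against air, and −0.33 [−0.68, 0.02] for sorted against hyperoxia. Within this class, then, the sorted cells were not above the unsorted hyperoxia cells in Cdkn1a. The share of cells with a Cdkn1a UMI was 30.1% [20.5, 41.2], 34.9% [23.3, 48.0] and 46.5% [41.6, 51.4], and at 1000 counts per cell it was 7.23%, 7.94% and 5.06%. The hyperoxia level rested on few cells, since 10 of 63 cells held 79.0% of its counts. The top 10 of 83 air cells held 62.5% and the top 10 of 415 sorted cells 20.96%. As 10 cells are a smaller part of a larger class, these shares cannot be compared directly. T cell-like cells at pnd7 had a Cdkn1a UMI in 0 of 149 air cells of median depth 5678 and in 0 of 63 hyperoxia cells of median depth 6166, with exact upper limits of 2.45% and 5.69% on the share with a captured UMI.

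Gdf15 in the same class was at 128.7 CPM [109, 151] in air, 73.6 CPM [57.0, 93.7] in hyperoxia and 819 CPM [798, 841] in sorted cells. Its log2 ratio was 2.67 [2.44, 2.91] for sorted against air, 3.48 [3.13, 3.85] for sorted against hyperoxia and −0.81 [−1.25, −0.38] for hyperoxia against air. Gdf15 UMIs were found in 38.6% of air, 30.2% of hyperoxia and 78.6% of sorted cells, and at 1000 counts per cell in 6.02%, 4.76% and 39.5%. The air and hyperoxia levels rested on few cells. The top 10 of 83 air cells held 78% of 150 counts, with up to 29 in 1 cell. The top 10 of 63 hyperoxia cells held 78.8% of 66 counts. Mdm2 was at 53.2, 82.6 and 288 CPM, and its log2 ratios were 0.63 [0.13, 1.15] for hyperoxia against air and 1.80 [1.47, 2.16] for sorted against hyperoxia. Bax was at 184, 257 and 425 CPM, with 0.48 [0.21, 0.76] and 0.73 [0.53, 0.93] for the same comparisons. Both genes were thus ordered air, hyperoxia, sorted, with each step beyond its counting interval.

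Zmat3, Trp53inp1 and Ccng1 had another order in these cells, with their highest levels in unsorted hyperoxia. Zmat3 was at 17.2 CPM in air, 53.6 CPM in hyperoxia and 17.4 CPM in sorted cells, with a log2 ratio of 1.64 [0.86, 2.47] for hyperoxia against air, from under 100 counts, and −1.62 [−2.12, −1.10] for sorted against hyperoxia. Of the 48 Zmat3 counts in hyperoxia, 16 came from 1 cell and 83.3% from 10 cells. Ccng1 was at 84.1, 117 and 56.4 CPM, with 0.48 [0.07, 0.89] and −1.05 [−1.37, −0.73], so that it was lower in sorted cells within the class and higher over the whole library. Trp53inp1 was at 18.9, 36.8 and 14.0 CPM, with 0.96 [0.14, 1.81], also from under 100 counts, and −1.40 [−1.98, −0.78]. Btg2 was at 244, 225 and 92.6 CPM, lower only in the sorted cells at −1.40 [−1.61, −1.19] against air. Phlda3 was at 48.9, 58.0 and 48.1 CPM and Trp53 at 84.9, 75.9 and 93.4 CPM.

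Of the 8 members with at least 100 counts in hyperoxia against air, 1 was at least 2-fold higher, Cdkn1a, and 0 were lower, beside 0.349% and 0.537% of 3725 genes. For sorted against air, 4 of 10 were higher and 1 was lower, beside 3.79% and 13.6% of 6799 genes. For sorted against hyperoxia, 2 of 10 were higher and 4 lower, beside 4.07% and 13.6% of 6654 genes. The median over all genes in the class was −0.30 for sorted against air and −0.28 for sorted against hyperoxia. Per cluster, Cdkn1a was at 60.2 CPM [53.9, 67.0] in the 373 sorted cells of the Hmox1-led cluster and at 132 CPM [111, 156] in the 42 sorted cells of a cluster led by genes of dividing cells. Gdf15 was at 805 and 892 CPM in these clusters, and at 92.0 and 64.8 CPM in the main air and hyperoxia cluster. The cluster led by genes of dividing cells held 17 of the 83 air and 15 of the 63 hyperoxia cells, beside 42 of the 415 sorted cells. The part of this mix in the Cdkn1a comparison within the class was not tested.

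C1q macrophage-like cells, macrophages marked by the complement genes C1qa, C1qb and C1qc, held the highest Cdkn1a level of any class with at least 20 cells in a library. There were 22 such cells in air, 19 in hyperoxia and 46 in the sorted library at pnd7, and the hyperoxia cells were too few to be compared. Cdkn1a was at 15.9 CPM [4.35, 40.8] in air, from 4 counts, and at 341 CPM [299, 386] in sorted cells, from 245 counts. The log2 ratio was 4.42 [3.04, 6.30], and the share of cells with a UMI was 13.6% in air and 89.1% [76.4, 96.4] in sorted cells, or 0% (exact upper limit 15.4%) and 28.3% at 1000 counts per cell. These 46 cells held 28.3% of all Cdkn1a counts of the sorted library.

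Mdm2 was at 87.7 CPM in air and 519.8 CPM [468, 575] in sorted C1q macrophage-like cells, a log2 ratio of 2.57 [1.95, 3.26]. Gdf15 was at 15.9 CPM from 4 counts in 1 air cell and at 737 CPM [675, 802] in sorted cells, a log2 ratio of 5.53 [4.16, 7.41]. Of its 530 sorted counts, 80% came from 10 of the 46 cells, with up to 105 in 1 cell. Bax was at 155 CPM and 410.0 CPM, 1.40 [0.91, 1.92], and Btg2 at 275 CPM and 346 CPM, 0.33 [−0.06, 0.74]. Of the 6 members with at least 100 counts, 4 were at least 2-fold higher and 0 lower, beside 18.3% and 9.11% of 1592 genes. Cdkn1a and Gdf15, with 4 air counts each, reached that number through the sorted cells. Among members short of it, Ccng1 was at 35.9 CPM in air and 27.8 CPM in sorted cells. Phlda3 was at 7.97 and 2.78 CPM, and Zmat3 went the other way, at 3.99 and 12.5 CPM. The split into higher and lower thus depends on which genes could be measured. Within the sorted library, Cdkn1a and Mdm2 were higher in C1q than in alveolar macrophage-like cells, 341 against 71.7 CPM and 519.8 against 288 CPM, while Phlda3 was lower at 2.78 against 48.1 CPM.

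**Figure D3:**
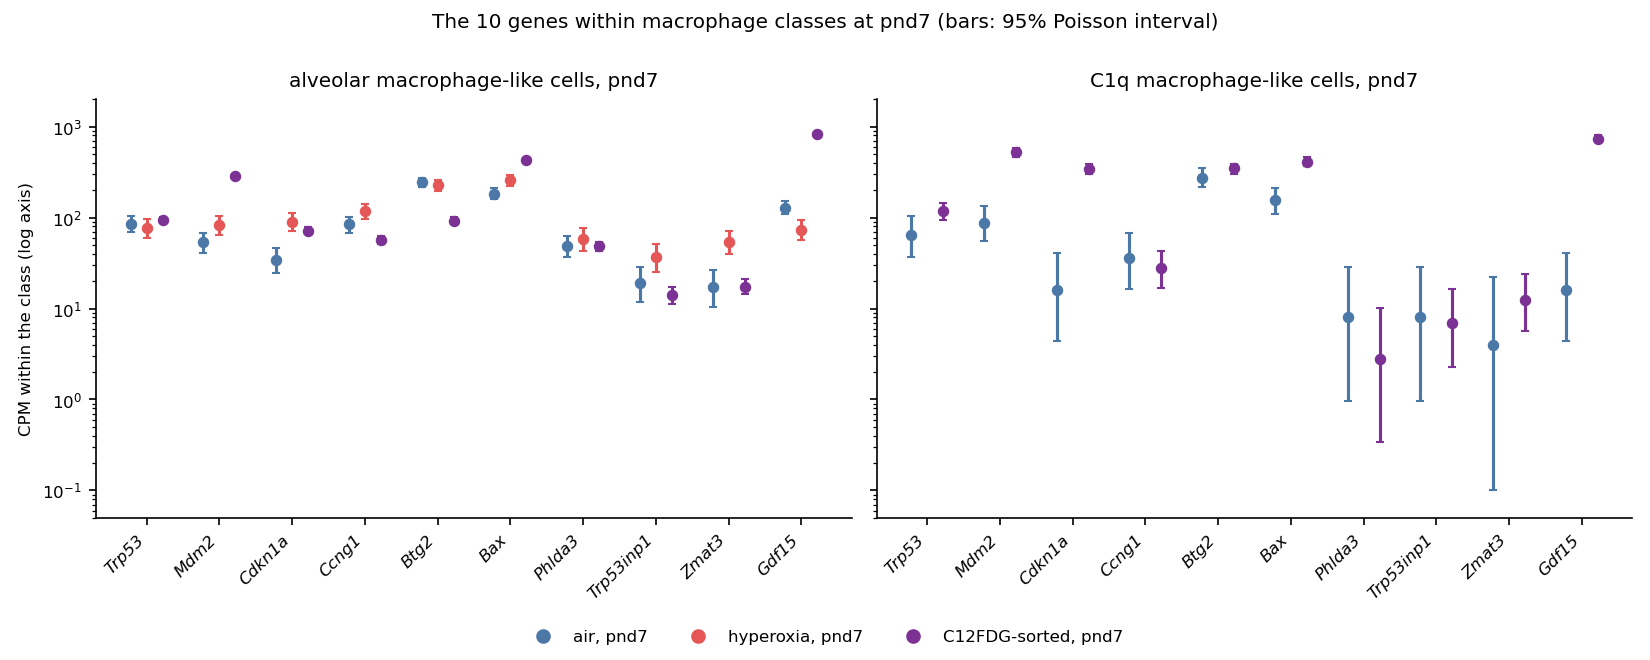
Levels of the 10 genes within alveolar macrophage-like and C1q macrophage-like cells at pnd7, in CPM on a log axis with 95% Poisson intervals. In alveolar macrophage-like cells Cdkn1a is at 34.3, 90.4 and 71.7 CPM in air, hyperoxia and sorted cells, and Gdf15 is at 819 CPM in sorted cells.

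Gdf15 is switched on by the integrated stress response as well as by p53, and 7 genes of that response were read beside it. In the sorted library the 7 had a median log2 ratio of 2.07 against air. At least 2-fold higher were 6 of them, beside 7.81% of all genes. They were Atf4 and Ddit3, which encode the transcription factors ATF4 and CHOP, with 1.61 and 2.19, Trib3 with 2.07, Chac1, which degrades glutathione, with 5.77 [4.82, 6.92], Asns, asparagine synthetase, with 1.96, and Sesn2, which is also a p53 target, with 2.25. The summed level of all 7 listed genes was 735 CPM in sorted and 267 CPM in air cells. Within alveolar macrophage-like cells 2 of 6 measured were at least 2-fold higher against air, beside 3.79% of all genes. Ddit3 was at 85.3 and 18.0 CPM and Chac1 at 17.7 and 0 CPM, at least 2.79 on the log2 scale with 3 counts as the floor. Within C1q macrophage-like cells all 4 measured were at least 2-fold higher, beside 18.3% of all genes, Atf4 at 694 and 104 CPM among them. To be measured a gene needed 100 counts over both groups, which genes high in the larger sorted group reach more easily. The part of the stress response genes in the Gdf15 level was not tested. In sorted alveolar macrophage-like cells at 1000 counts per cell, Gdf15 was found in 38.1% [18.1, 61.6] of 21 cells with a Cdkn1a UMI and in 39.6% [34.7, 44.6] of 394 cells without. At full depth 46.5% of these sorted cells had a Cdkn1a UMI, so the cells without include many that carry it. The shares therefore cannot tell whether these genes go together.

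Among 34 further p53 targets, 28 had enough counts for sorted against air, of which 5 were at least 2-fold higher and 9 lower, with a median of −0.35 beside −0.59 over all genes. Beside the 7.81% and 38.5% of all genes given above, the number of lower targets was not above the background. The higher genes were Plk3 (2.28), Sesn2 (2.25), Gadd45a (1.74), which acts in growth arrest after DNA damage, Perp (1.59) and the proapoptotic Pmaip1 (1.58), given as log2 ratios. The lower genes were Ptp4a3 (−3.71), Pml (−2.95), Ephx1 (−2.37), Sesn1 (−2.30), Fdxr (−1.84), Dcxr (−1.69), the DNA repair genes Ddb2 (−1.48) and Ercc5 (−1.07), and Bbc3 (−1.21), which encodes the proapoptotic PUMA. Of 12 kinases and regulators of p53, 11 were measured, 0 were higher, and the p53 inhibitor Mdm4 (−1.27), the damage kinase gene Atr (−1.26) and Trp53bp1 (−1.90) were lower, again no larger a share than the 38.5% of all genes. Within alveolar macrophage-like cells Pmaip1, Gadd45a and Plk2 were at least 2-fold higher and Tigar lower in sorted than in air cells among 15 measured targets, beside 3.79% and 13.6% of all genes. Against unsorted hyperoxia cells, Gadd45a and Plk2 were higher and Bbc3, Perp, Tigar and Apaf1 lower among 16, beside 4.07% and 13.6%. For hyperoxia against air, 0 of 29 further targets at pnd7 and 0 of 32 at pnd60 reached 2-fold, nor did any of 11 regulators at pnd7 or 10 at pnd60.

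Genes that cell dissociation and stress switch on quickly, and genes of dividing cells, were read for the same libraries. Of 10 immediate early genes, Atf3 was higher in sorted than in air cells, 562 against 58.6 CPM. Another 6 were at least 2-fold lower, beside 38.5% of all genes, Fos by −2.17 and Egr1 by −1.92 on the log2 scale among them. The summed level of all 10 was 2560 CPM in sorted and 3916 CPM in air cells. Within C1q macrophage-like cells Junb, Egr1 and Atf3 were higher and Fos and Jun lower among 8 measured, beside 18.3% and 9.11% of all genes. At pnd60 the summed level was 6721 CPM in air, and in hyperoxia it was 4373 CPM at pnd7 and 7119 CPM at pnd60. Between the ages 3 of the 10 were at least 2-fold higher in air and 4 in hyperoxia, beside 15.1% and 19.1% of all genes. Of 8 genes of dividing cells, Pcna (1.35) was higher and Cenpf (−1.94) lower, beside 7.81% and 38.5% of all genes. All 4 hemoglobin genes with enough counts were at least 2-fold lower in sorted cells and at pnd60 in hyperoxia against air, and 0 were called at pnd7 in hyperoxia against air. The part of these lists in the member levels was not tested.

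At pnd7 Cdkn1a was higher in hyperoxia than in air in each of 5 classes with at least 30 counts, with an interval above 0 in 2 of them, and all 5 came from the same pair of libraries. These were the alveolar macrophages above and type II cell-like cells, which make surfactant. In the latter the Cdkn1a level was 10.3 CPM in 182 air cells, from 27 counts, and 25.9 CPM in 146 hyperoxia cells, from 64 counts, a log2 ratio of 1.33 [0.66, 2.04]. UMIs were found in 12.1% and 24.0% of the cells, and at 1000 counts per cell in 0.549% and 2.05%. Gdf15 in these cells was at 6.11 CPM and 22.3 CPM, from 16 and 55 counts, a log2 ratio of 1.87 [1.04, 2.77], but 10 of the 146 hyperoxia cells held 81.8% of these counts. The share of cells with a Gdf15 UMI was 7.14% and 12.3%, and at 1000 counts per cell it had the other order, 1.10% and 0.685%. Phlda3 gave 1.73 [0.54, 3.09] from 8 and 25 counts, Trp53 0.56 [0.13, 0.99], Mdm2 0.51 [0.04, 0.98], Bax 0.48 [0.14, 0.82] and Ccng1 0.66 [0.06, 1.27]. Btg2 was lower, at −0.37 [−0.48, −0.25].

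Type I cell-like cells, the thin cells of gas exchange, had the opposite Gdf15 difference. Their level was 26.0 CPM in 231 air cells and 3.62 CPM in 67 hyperoxia cells, from 32 and 4 counts, a log2 ratio of −2.85 [−4.81, −1.35]. The median depth of these cells was 2143 counts in air and 10332 in hyperoxia, and 211 of the air cells were in a cluster that held 12 of the hyperoxia cells. Endothelial-like cells had 95.9 CPM of Phlda3 in air and 139 CPM in hyperoxia, a log2 ratio of 0.54 [0.21, 0.87], and their Cdkn1a ratio of 0.62 [−0.46, 1.77] did not exceed counting error. Monocyte-like cells gave 0.99 [−0.07, 2.11] for Cdkn1a.

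Across cell classes the 10 genes had different places of highest level. At pnd7 in air, Trp53 was highest in T cell-like (177 CPM) and B cell-like (169 CPM) cells and low in type II cell-like cells (30.5 CPM). Btg2 was highest there instead, at 559 CPM in type II cell-like cells, and lowest in fibroblast-like cells at 189 CPM. Phlda3 was highest in fibroblast-like cells at 253 CPM and was at 2.17 CPM in T cell-like cells, and Trp53inp1 was highest in T cell-like cells at 153 CPM. Of the 149 T cell-like air cells, 39 lay in a cluster led by Rag1, Arpp21, Dntt and Ccr9. Bax was at 200.4 CPM in endothelial-like, 188 CPM in monocyte-like and 184 CPM in alveolar macrophage-like cells, which did not differ beyond their intervals. Mdm2 was highest in ciliated cell-like cells, at 151 CPM at pnd7 in air, 255 CPM at pnd60 in air and 293 CPM at pnd60 in hyperoxia.

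In the unsorted libraries alveolar macrophage-like cells, 3.60% to 5.06% of the cells, held 61.5% of the Gdf15 counts in air and 38.4% in hyperoxia at pnd7, and 54.8% and 63.2% at pnd60. Type II cell-like cells held 32.0% in hyperoxia at pnd7. In the sorted library 90.2% lay in alveolar macrophage-like cells, which were 84.2% of its cells. Fibroblast-like, monocyte-like, B cell-like and T cell-like cells had 0 Gdf15 counts at pnd7 in air and hyperoxia, with upper limits of 2.20 to 9.60 CPM. Cdkn1a had 0 counts in the 123 air and 70 hyperoxia B cell-like cells at pnd7, with exact upper limits of 2.95% and 5.13% on the share of cells with a captured UMI at median depths of 3787 and 4191 counts. At pnd7 in air its highest levels were 39.0 CPM [21.8, 64.3] in ciliated cell-like, 34.3 CPM in alveolar macrophage-like and 27.5 CPM [14.6, 47.0] in monocyte-like cells, which overlapped.

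**Figure D4:**
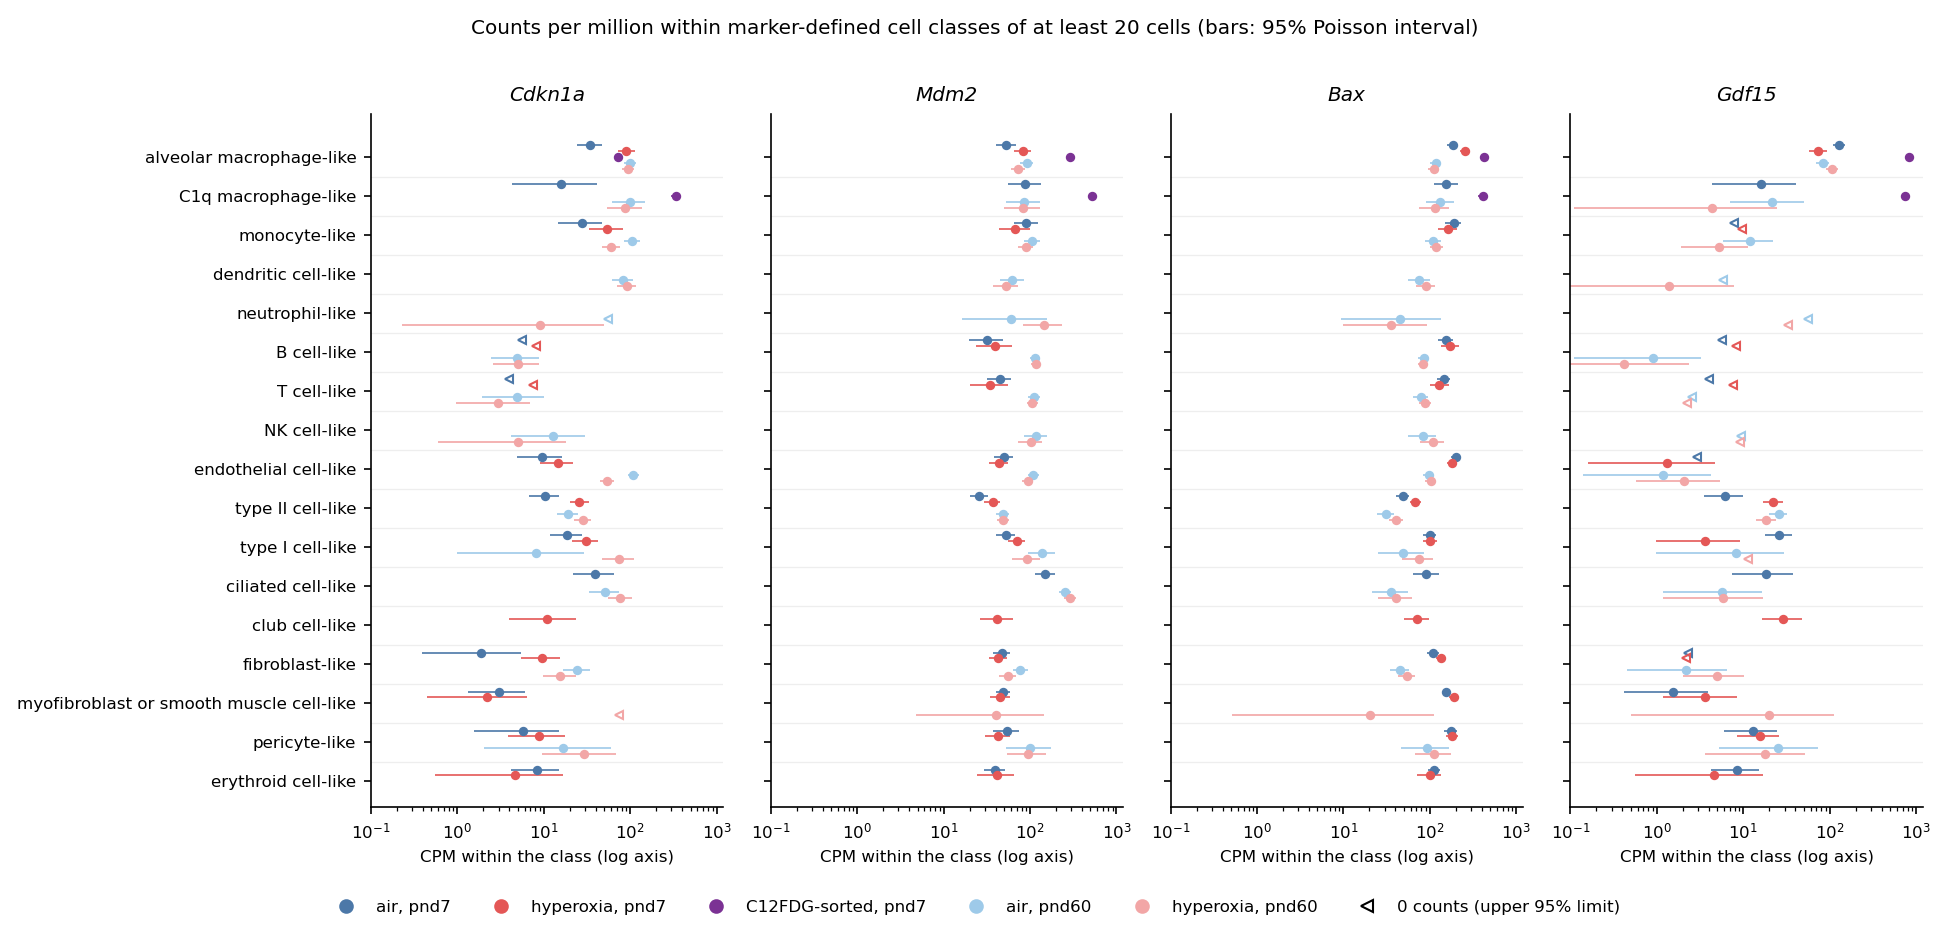
Levels of Cdkn1a, Mdm2, Bax and Gdf15 in CPM on a log axis within each cell class of at least 20 cells, by library, with 95% Poisson intervals, and open triangles at the upper limit where a class had 0 counts. Gdf15 is highest in alveolar macrophage-like cells in each library, and Cdkn1a is at 341 CPM in sorted C1q macrophage-like cells.

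At pnd60, after recovery in room air, the hyperoxia and air libraries were close for all 10 genes. Cdkn1a was at 44.7 CPM [41.3, 48.2] in air and 38.3 CPM [35.4, 41.5] in hyperoxia, a log2 ratio of −0.22 [−0.38, −0.06]. Mdm2 was at 96.0 and 88.7 CPM with −0.12 [−0.22, −0.01], and Bax at 73.5 and 80.1 CPM with 0.12 [0.01, 0.24]. Gdf15 was at 15.6 and 16.5 CPM with 0.08 [−0.18, 0.34], and Phlda3 at 42.3 and 46.9 CPM with 0.15 [−0.01, 0.30]. None reached 2-fold, beside 0.271% of 12928 genes higher and 0.248% lower, and the members' median was −0.00 beside 0.01 over all genes.

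Within classes at pnd60 the Cdkn1a ratio took both signs, being higher in hyperoxia in 3 of 8 classes and lower in 5. Endothelial-like cells had 109 CPM of Cdkn1a in air and 54.1 CPM in hyperoxia, a log2 ratio of −1.01 [−1.37, −0.66], over 785 and 799 cells. UMIs were found in 15.7% and 9.51% of them, and at 1000 counts per cell in 9.11% and 4.17%. It was the 1 member of 8 measured there that reached 2-fold, beside 0.202% of 6438 genes higher and 0.14% lower. Monocyte-like cells had 106 CPM and 60.3 CPM, −0.82 [−1.29, −0.35], while type II cell-like cells had 18.9 CPM and 28.2 CPM, 0.58 [0.07, 1.11]. Alveolar macrophage-like cells had 100.5 CPM in air and 94.5 CPM in hyperoxia, a log2 ratio of −0.09, and their Gdf15 was at 82.8 and 107 CPM, 0.37 [0.03, 0.71].

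Between pnd7 and pnd60, Cdkn1a was higher at the later age in both exposures. The log2 ratio was 2.00 [1.76, 2.24] in air, from 11.2 to 44.7 CPM, and 0.85 [0.65, 1.05] in hyperoxia, from 21.3 to 38.3 CPM. These comparisons use the same libraries as those above, and the age difference of each exposure includes the pnd7 difference between them. Trp53inp1 was at 43.7 and 109.6 CPM in air, 1.33 [1.20, 1.46], and at 41.6 and 102 CPM in hyperoxia, 1.30 [1.16, 1.44]. Btg2 was at 337 and 657 CPM in air, 0.96 [0.91, 1.01], and at 321 and 659 CPM in hyperoxia, 1.04 [0.99, 1.09]. Mdm2 gave 0.99 [0.87, 1.12] and 0.80 [0.67, 0.93].

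Over whole libraries Bax and Phlda3 were lower at pnd60. Bax gave −0.79 [−0.90, −0.69] in air and −0.85 [−0.95, −0.75] in hyperoxia, and Phlda3 gave −0.61 [−0.75, −0.46] and −0.88 [−1.01, −0.75], of which the first became 0.04 when no barcode was filtered out. In each exposure 2 of the 10 were at least 2-fold higher and 0 lower, beside 15.1% of 13003 genes higher and 9.35% lower in air, and 19.1% of 12923 genes higher and 9.49% lower in hyperoxia. The median of all genes was 0.23 in air and 0.29 in hyperoxia. Relative to it, 2 members were higher and 1 lower in air, and 1 was higher and 2 lower in hyperoxia. The share of all genes past this shifted cut was not computed. The higher members exceeded 97.1% (Cdkn1a) and 91.4% (Trp53inp1) of all genes in air, and 87.9% (Trp53inp1) in hyperoxia. The lower members exceeded 12.5% (Bax) in air, and 11.9% (Bax) and 11.4% (Phlda3) in hyperoxia.

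Several of these age differences were seen class by class, in classes with at least 30 counts that all come from the same libraries. Bax was lower at pnd60 in 11 of 11 classes in air, with 10 intervals below 0, and in 10 of 10 in hyperoxia, with 7. Trp53inp1 was higher in 10 of 10 classes in air and 9 of 10 in hyperoxia, and Mdm2 in 10 of 11 and 8 of 10. Phlda3 did not follow its library-wide difference, being higher at pnd60 in 5 of 6 classes in air, with 3 intervals above 0, and in 3 of 7 in hyperoxia. It was at 48.9 and 78.9 CPM in alveolar macrophage-like cells in air at pnd7 and pnd60, while fibroblast-like cells, with 253 and 113 CPM, were the 1 class with a lower level. Cdkn1a was higher in 6 of 6 classes in each exposure, with 5 intervals above 0 in air and 2 in hyperoxia. Alveolar macrophage-like cells gave 1.55 [1.04, 2.09] for Cdkn1a in air and 0.06 [−0.33, 0.47] in hyperoxia, where the pnd7 level was 90.4 CPM. These cells, too, came from different clusters at the 2 ages, since 64 of 83 air cells at pnd7 and 154 of 188 at pnd60 lay in separate clusters.

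Endothelial-like cells, which line the vessels, differed between the ages in Cdkn1a beyond counting error in both exposures. It was at 9.43 CPM at pnd7 and 109 CPM at pnd60 in air, 3.53 [2.70, 4.51], and at 14.5 and 54.1 CPM in hyperoxia, 1.90 [1.22, 2.63]. Most of these cells lay in different clusters at the 2 ages. In air 3 of 7 measured members were at least 2-fold higher, Cdkn1a, Mdm2 (1.13) and Trp53inp1 (1.02), and 1 was lower, Bax (−1.05), beside 13.2% and 12.1% of 5718 genes. In hyperoxia 2 of 7 were higher, Cdkn1a and Mdm2 (1.12), and 0 lower, beside 16.2% and 10.7% of 6158 genes. Over whole libraries, 7 of 8 genes of dividing cells were at least 2-fold lower at pnd60 in each exposure, with medians of −2.21 in air and −2.72 in hyperoxia. Of all genes, 9.35% were lower in air and 9.49% in hyperoxia. Further p53 targets at least 2-fold higher with age in air were Steap3 (2.33), Ephx1 (2.32), Pmaip1 (2.27), Sesn1 (1.81), Plk3 (1.80), Pml (1.57) and Tnfrsf10b (1.03). Ckap2 (−2.60) was lower. These were 7 higher and 1 lower of 31 measured, beside 15.1% and 9.35% of all genes. In hyperoxia 9 of 31 were higher and 1 was lower, beside 19.1% and 9.49%.

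The genes whose levels followed those of Cdkn1a most closely over 56 pairs of library and class were Fnip2 (Pearson r of 0.81), Cebpg (0.80), Tmem106a (0.78), Mospd2 (0.77) and Specc1 (0.77), among 11058 genes on the log2(CPM + 1) scale. For Gdf15 they were Lonrf3 (0.76), Cstb (0.76), Mt1 (0.75), Renbp (0.73) and Atp6v0d1 (0.73). Cdkn1a had an r of 0.53 with Mdm2, 0.49 with Gdf15 and −0.36 with Trp53. The points share 5 libraries and differ in depth, so these values are a description.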

How the data were processed

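Single-cell RNA of mouse lung was measured in 5 libraries (10x Genomics Chromium). The authors deposited raw counts of UMIs per gene and barcode, with no normalization. The submitters' processing notes name Cell Ranger, Seurat 3.2.1 and the build mm10, and the matrix headers give the software version 3.1.0. The annotation is not given in the sources used here. A further feature named Cdkn1a_1 was kept apart, and molecules that fit both features may have been split or dropped before deposition.

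Cells with over 700 and under 8000 genes and under 5% mitochondrial counts, computed from 2 features, were kept. Counts were summed per library or class and divided by their total (CPM). Poisson intervals of CPM, Clopper-Pearson intervals of shares and conditional binomial intervals of log2 ratios are exact at 95%. A gene was measured with at least 100 counts over both groups, and 0 counts were set to a floor of 3. With 1 library per condition no p-value was computed. A 2-fold difference is a size, not a test.

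Cells were clustered together with scanpy 1.11.5 (Leiden, resolution 2, 50 components, 3000 features, 15 neighbours, no integration) without the members, the listed p53 genes and the hemoglobin and mitochondrial genes. Of 58 clusters, 51 were named from marker lists. The naming thresholds were set after the clusters were seen, and names may differ from those of the study. Classes under 20 cells in a library were not compared. Scrublet called 301 doublets (2.28%), under 0.5% in each library at pnd7, where it has not worked, and none were removed.

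The members, gene lists and tests were chosen with earlier results of these data known. Named beside the members were listed p53 genes past 2-fold, listed stress and dividing-cell genes, and the 5 genes most correlated with Cdkn1a and with Gdf15. Alternatives covered the filter, scaling, weighting of cells, thinning to 1000 counts, doublets, the added copy and the classing of cells. The scripts were tested on simulated counts. Python 3.11.15, numpy 2.4.6, scipy 1.17.1 and pandas 2.3.3 were used.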

Additional observations from a re-analysis of the deposited data

Results flagged for a closer look

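The hyperoxia-to-air log2 ratio had opposite signs at the 2 ages, each beyond counting error, for 5 items, and with 1 library per condition none of these differences between ages was tested. Cdkn1a over all cells was 0.93 at pnd7 and −0.22 at pnd60. Gdf15 in alveolar macrophage-like cells was −0.81 and 0.37. At pnd7 10 cells held 78% of its air counts and 10 cells held 78.8% of its hyperoxia counts in this class. Btg2 was −0.37 and 0.45 in type II cell-like cells, and 0.45 and −0.14 in B cell-like cells. Trp53 in T cell-like cells was −0.68 and 0.34. The Rag1-led cluster of that class held 39 of 149 air and 13 of 63 hyperoxia cells at pnd7. At pnd60 it held 46 of 568 and 20 of 634.

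Opposite signs between cell classes of the same libraries, also not tested, were seen for 3 genes. Gdf15 at pnd7 was 1.87 in type II cell-like and −2.85 in type I cell-like cells, from few cells in the first and 4 hyperoxia counts in the second. Phlda3 at pnd7 was 1.73 in type II cell-like and −2.16 in erythroid-like cells, the latter from 4 counts in hyperoxia and 54 in air. Cdkn1a at pnd60 was −1.01 in endothelial-like and 3.18 in type I cell-like cells, the latter from 24 counts in hyperoxia, up to 11 of them in 1 cell, and 2 in air.

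The further copy Cdkn1a_1, left out of the member values and added to Cdkn1a only as an alternative, had 8 counts in the sorted library and 5 in the hyperoxia library at pnd60, against 0 in the air library at pnd7.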

How the results depend on the processing

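No paired analysis was possible because the 5 libraries stood for 5 conditions, and for the same reason no replicate could be left out. No alternative reversed the sign of a 2-fold difference. The main medians over the members were all under 2-fold, and for such values a change of sign was not counted as a reversal. Of 64 alternatives for the main values, 52 stayed within the band set around the main value and 12 moved. For the members' medians this band ran between the medians of the single genes' limits, which is not a counting interval of the median. The median share of cells with a UMI was counted as moved without a band. With no filter, which adds barcodes dominated by hemoglobin to the totals, the members' median log2 ratio became 1.24 for sorted against air, 1.04 for sorted against hyperoxia, 1.25 for pnd60 against pnd7 in air and 0.98 in hyperoxia. In that setting the median over all genes was 0.08, 0.11, 0.87 and 0.92 for the same comparisons. Centring on all genes gave 1.13, 0.92, 0.32 and 0.11 for these 4. Thinned cells gave 0.27 for hyperoxia against air at pnd7, 0.19 for sorted against hyperoxia and 0.15 for pnd60 against pnd7 in hyperoxia. The median share of cells with a UMI was 23.4%, and 5.30% with thinning, and all 50 shares were lower. With no filter, 5 members were at least 2-fold higher and 0 lower in each sorted comparison, and 6 in air and 5 in hyperoxia were higher between the ages. Thinning or weighting each cell equally left 1 member at least 2-fold lower between the ages in hyperoxia, and thinning left 1 lower in sorted against air. The shares of all genes past 2-fold in these settings were not computed, so these counts are not results about the members. Of 480 alternative member ratios, 32 changed sign, among them Gdf15 between the ages in air (0.09, or −0.90 with cells weighted equally). Within alveolar macrophage-like cells Cdkn1a ranged from −0.39 to −0.05 for sorted against hyperoxia, from 0.93 to 1.36 for sorted against air and from 1.29 to 1.54 for hyperoxia against air. Where each cell was classed by its own markers, 18.8% of cells lay near the cut. The causes of these moves were not tested. Classes with under 30 counts of a gene could show only large differences.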
